A study of Mus musculus with 6 samples.

Results

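Aquaporins and carbonic anhydrases are described here in mouse colonic crypts, the epithelial glands of the large intestine. The genes are Aqp1, Aqp3, Aqp4 and Aqp8 and Car1, Car2, Car3 and Car4. All probe sets annotated to exactly 1 of these 8 symbols were taken, which gave 13 of the 22626 probe sets on the array. Of the 8 genes, 6 were bright enough to be tested, with 8 probe sets, and Aqp3 and Car3 were not. RNA of isolated crypts was hybridised to Affymetrix arrays in 3 groups of 2 arrays, each array carrying a pool from 2 male mice heterozygous for Lgr5-lacZ, a lacZ reporter at the stem cell gene Lgr5. Control crypts came from the distal colon of mice aged 6 to 8 weeks on plain drinking water. DSS crypts came from the distal colon of mice of that age after 2 days of 1% dextran sulfate sodium, a polysaccharide that injures the colonic epithelium. Tumor crypts came from 12 pooled adenomas per array of mice that were given azoxymethane, a colon carcinogen, at 12.5 mg/kg when 6 to 8 weeks old and then DSS at 2, 1.5 and 1.0% in cycles of 5 days. These adenomas were taken 90 days after azoxymethane, so tumor tissue, carcinogen, repeated DSS and age cannot be told apart.

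Aquaporins are membrane channels that pass water, and some of them glycerol, along osmotic gradients. Carbonic anhydrases are zinc enzymes that interconvert carbon dioxide and bicarbonate, and so supply the acid and base that epithelial exchangers move. In the colon, surface cells absorb sodium, chloride and water and secrete bicarbonate. Aqp8 sits in the colonic surface epithelium, Aqp3 and Aqp4 are basolateral channels, and Aqp1 is best known from capillary endothelium and kidney. Car1 and Car2 are cytosolic enzymes of colonocytes and of red blood cells. Car4 is anchored to the outer face of the apical membrane by a glycolipid, and Car3 is a cytosolic enzyme of muscle, fat and liver.

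The promoters of Aqp8 and Car4 are shown because these genes had the largest decreases among the members in tumor crypts. Sequences were taken for Aqp1, Aqp3, Aqp8 and Car4, 4 of the 8 genes, from the RefSeq promoter sequences. These run from 250 bases before to 50 bases after the annotated start. Aqp4 was left out before the search, so this count does not show how many of the 8 genes have an entry. The windows of Aqp8 and Car4 lie on the plus strand of GRCm38.p6, and capitals mark matches to the motifs searched.
Aqp8, chr7:123462044-123462343: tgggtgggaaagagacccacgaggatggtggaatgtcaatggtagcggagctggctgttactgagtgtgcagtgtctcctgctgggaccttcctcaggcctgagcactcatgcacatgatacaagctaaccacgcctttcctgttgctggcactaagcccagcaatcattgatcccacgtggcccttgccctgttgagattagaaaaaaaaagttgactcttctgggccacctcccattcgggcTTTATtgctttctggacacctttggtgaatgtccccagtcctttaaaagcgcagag
Car4, chr11:84957504-84957803: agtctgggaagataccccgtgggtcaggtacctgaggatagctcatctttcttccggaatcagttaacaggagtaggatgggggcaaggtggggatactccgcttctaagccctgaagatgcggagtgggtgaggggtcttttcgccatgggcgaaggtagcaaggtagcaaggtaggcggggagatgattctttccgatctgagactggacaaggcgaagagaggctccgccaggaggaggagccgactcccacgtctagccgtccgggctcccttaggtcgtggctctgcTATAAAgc

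On both strands, the windows were searched for CTTTGA, a core of TCF/LEF sites, for TTTATN and TTTACG, cores of CDX sites, and for TATAAA, the TATA box. The Aqp8 window held TTTATN once, on the gene's strand, starting 6 bases before the annotated start. The Car4 window held TATAAA starting at base 43 after the start, and its one TTTATN match, on the opposite strand, is the same stretch. Neither window held CTTTGA or TTTACG. Among all 32851 promoter windows of that length, 39.9% held TTTATN, 13.6% TATAAA, 16.0% CTTTGA and 3.03% TTTACG, so the match in Aqp8 is of a common kind.

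In the RefSeq annotation of GRCm38.p6, Car1 (chromosome 3, 14766214 to 14808365), Car3 (14863538 to 14872381) and Car2 (14886269 to 14900770) are neighbours that span 134.6 kb, and Car13, the next protein-coding gene, lies at 14641727 to 14663002. Car4 is on chromosome 11 (84957754 to 84966054), Aqp8 on chromosome 7 (123462294 to 123468003), Aqp1 on chromosome 6 (55336299 to 55348555), Aqp3 on chromosome 4 (41092724 to 41098183) and Aqp4 on chromosome 18 (15389394 to 15410982). The 8 genes thus lie on 6 chromosomes.

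The deposited values were MAS5 signal intensities on a linear scale, with array medians between 94.8 and 131.3. Spiked poly-A controls had mean intensities of 874 and 1314 on the control and DSS arrays numbered 1 and of 351 to 443 on the remaining 4, and the log2 ratio of 3' to 5' actin probe sets was 0.95 and 1.04 on the tumor arrays against 1.20 to 1.63 elsewhere. Over 7456 tested genes, which are not independent, Pearson's r of the tumor arrays was 0.959 with each other and 0.809 to 0.876 with arrays of the other groups. It was 0.971 between the control arrays and 0.978 between the DSS arrays. Control and DSS arrays of the same replicate number had 0.983 and 0.986, and those of different number 0.971 and 0.975. The pan-epithelial list, which checks the labelled tissue, had all 12 genes on the array, none below the array median throughout, and its summed intensity lay between 74640 and 91238 on the 6 arrays. With no detection calls in the table, a level near an array's median cannot be separated from background here.

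**Figure D1:**
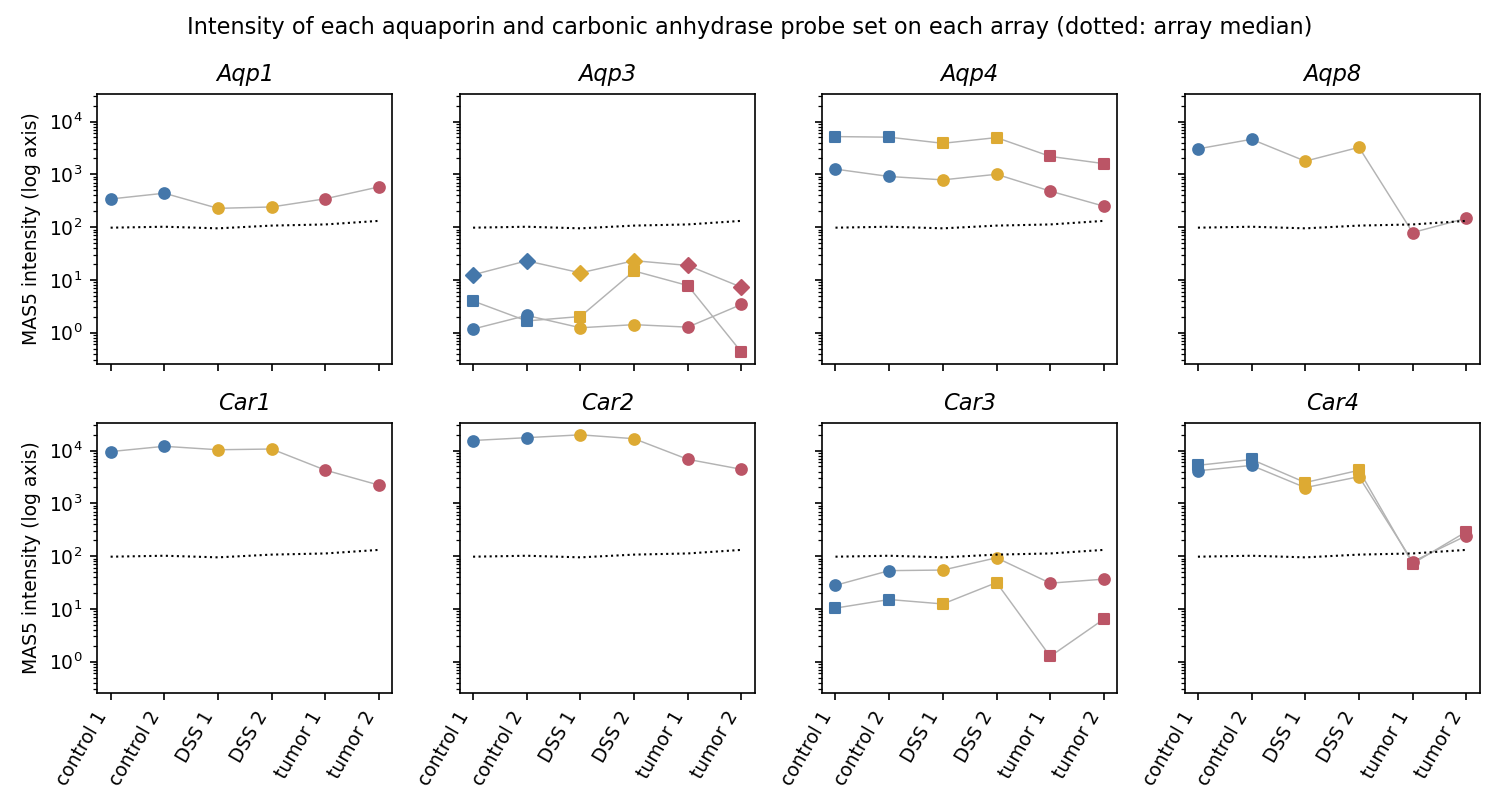
MAS5 intensity (log axis) of the 13 probe sets of the 8 genes on each of the 6 arrays, with control arrays in blue, DSS arrays in yellow and tumor arrays in red; marker shapes and grey lines tell the probe sets of a gene apart, and the dotted line joins the array medians. Aqp8 and Car4 lie between 1776 and 6784 on control and DSS arrays with their tested probe sets and between 72.1 and 290 on tumor arrays, while every Aqp3 and Car3 value lies below its array's median.

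Of the aquaporins, Aqp8, the channel of surface colonocytes, had intensities of 3036 and 4612 in control, 1776 and 3248 in DSS, and 78.8 and 147 in tumor crypts. Both tumor arrays lay far below the other 4, and control and DSS arrays overlapped. The tumor values ranked at percentiles 45.4 and 51.7 of their arrays, against 90.7 to 96.4 on the other arrays.

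Aqp4 measured 5187 and 5055 in control, 3872 and 4966 in DSS, and 2186 and 1595 in tumor crypts on its brighter probe set. Its other probe set measured 1255 and 910 in control, 785 and 1002 in DSS, and 481 and 249 in tumor crypts. The tumor arrays were lowest on both probe sets, and only on the brighter one were the DSS arrays below both control arrays.

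Aqp1 measured 341 and 439 in control, 227 and 241 in DSS, and 344 and 578.5 in tumor crypts. The DSS arrays were the lowest pair, and control and tumor arrays overlapped. Aqp3 was dim on each of its 3 probe sets, with all values between 0.427 and 23.1 and none above its array's median, so no level in these crypts can be given from this array.

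Of the carbonic anhydrases, Car4, the enzyme on the outer apical face, measured 5253 and 6784 in control, 2480 and 4233 in DSS, and 72.1 and 290 in tumor crypts. Its other probe set, whose name marks probes that can match several transcripts, gave 4139 and 5226, 1987 and 3200, and 78.5 and 243. On both probe sets the groups were ordered control, DSS, tumor, without overlap.

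Car2 was the brightest of the 13 probe sets on each array, a rank that holds for probe sets and not for RNA amounts. Its intensities were 15507 and 17557 in control, 19865 and 16780 in DSS, and 6827 and 4414 in tumor crypts. Car1 had values of 9564 and 12044 in control, 10359 and 10696 in DSS, and 4257 and 2212 in tumor crypts. For both genes control and DSS arrays overlapped and the tumor arrays were lowest, at percentiles 92.7 to 98.0 of their arrays.

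Car3 stayed below the array median on every array. Its brighter probe set measured 28.0 and 53.1 in control, 54.4 and 92.9 in DSS, and 30.7 and 36.6 in tumor crypts, and its other one lay between 1.26 and 31.5. When all probe sets were tested without a filter on dim ones, none of the 5 probe sets of Aqp3 and Car3 passed in any comparison (smallest adjusted p = 0.117, limma, for Car3 between tumor and DSS).

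The first comparison, DSS against control crypts, concerns the early response of the crypt to injury. None of the 6 tested genes passed, and the members' largest differences were lower values of Car4, Aqp1 and Aqp8 in DSS crypts. Tests were made with limma on log2 of the intensity plus 17.7, with Benjamini-Hochberg adjustment over all tested genes and a threshold of 0.05. Over all genes 0% passed, and 189 of 7456 had an unadjusted p under 0.05, among them Aqp1 of the 6. For Aqp1 the log2 change was -0.69 ± 0.26 (SE, adjusted p = 1.00, unadjusted p = 0.0291). For Car4 it was -0.88 ± 0.51, and same-numbered arrays differed by -1.08 and -0.68. For Aqp8 it was -0.64 ± 0.36, and same-numbered arrays differed by -0.77 and -0.50. The labels do not say that replicate numbers pair the pools, and the fit used here did not pair them. Fits that do so are given below with the processing alternatives. Mean intensities in DSS crypts were 55.8% of control for Car4, 59.9% for Aqp1 and 65.7% for Aqp8. The DSS arrays lay below both control arrays for Car4, Aqp1 and Aqp4, 3 of 6, where 13.7% of all tested genes did so. Aqp4 had a log2 change of -0.22 ± 0.20, Car1 of -0.03 ± 0.28 and Car2 of 0.15 ± 0.21. Same-numbered arrays differed in opposite directions for Car1 (0.11 and -0.17) and Car2 (0.36 and -0.07), and by -0.42 and -0.03 for Aqp4. With 1 control or DSS array left out, the change of Car4 lay between -1.26 (without DSS replicate 2) and -0.49 (without DSS replicate 1). That of Aqp8 lay between -1.07 and -0.20 on leaving out the same arrays.

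The second comparison set tumor against control crypts. Car4, Aqp8, Car1, Car2 and Aqp4 fell, and Aqp1 did not pass. Of the 6 tested genes 5 were called, all lower, where 22.5% of all tested genes were called and 9.74% were called lower. The mean intensity of Aqp8 fell from 3824 ± 1115 to 113 ± 48.3 (SD, n = 2 and 2), or 33.9-fold, and its log2 change was -4.90 ± 0.36 (SE, adjusted p = 0.000123). Car4 fell from 6019 ± 1082 to 181 ± 154, or 33.2-fold (83.4-fold without tumor replicate 2 and 20.8-fold without tumor replicate 1), with a log2 change of -5.17 ± 0.51 (adjusted p = 0.000438) and of -4.88 ± 0.43 on its other probe set. Among the 7456 genes the fitted log2 change of Car4 was the lowest and that of Aqp8 the second lowest. The rank of Car4 was 1 in 16 of the 18 other settings tried, 2 with a pseudocount of 1 and 5 without tumor replicate 1, and that of Aqp8 was between 2 and 4 in all of them. On the tumor arrays both stood near the array median, where signal cannot be separated from background, so their folds, log2 changes and ranks depend on the level that background sets.

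The cytosolic pair had smaller changes. Car1 had a mean of 10804 ± 1754 in control and 3234 ± 1446 in tumor crypts, and its log2 change was -1.80 ± 0.28 (adjusted p = 0.0034). Car2 averaged 16532 ± 1449 and 5620.3 ± 1706 in these groups and had a log2 change of -1.58 ± 0.21 (adjusted p = 0.00178). In tumor crypts 29.9% of the control intensity remained for Car1 and 34.0% for Car2. On the log2 scale and relative to control, Car1 differed from Car2 by -0.06 and -0.37 on the 2 tumor arrays. Aqp4, the basolateral channel, had means of 5121 ± 93.4 and 1891 ± 418, and its log2 change was -1.45 ± 0.20 on the brighter and -1.57 ± 0.31 on the other probe set (adjusted p = 0.002 and 0.0103). Aqp1 had a change of 0.20 ± 0.26 (adjusted p = 0.623). The changes of Car1, Car2 and Aqp4, and those of Car4 and Aqp8, differed from their neighbours in size by less than the sum of their SEs.

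Centring each array on its median moved the median change of all tested genes from 0.05 to -0.20. It turned the change of Aqp1 to -0.05, while those of the other 5 genes lay between -5.42 and -1.70 and passed. The calls over all genes were 954 higher and 726 lower, and 649 and 1227 with that centring. The tumor arrays were not ordered alike for all members. Car1, Car2 and Aqp4 were lower on tumor replicate 2 than on replicate 1, whereas Aqp8, Car4 and Aqp1 were higher on replicate 2. Without tumor replicate 1 the change of Aqp1 was 0.56, and without tumor replicate 2 it was -0.16, in neither case past the test.

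**Figure D2:**
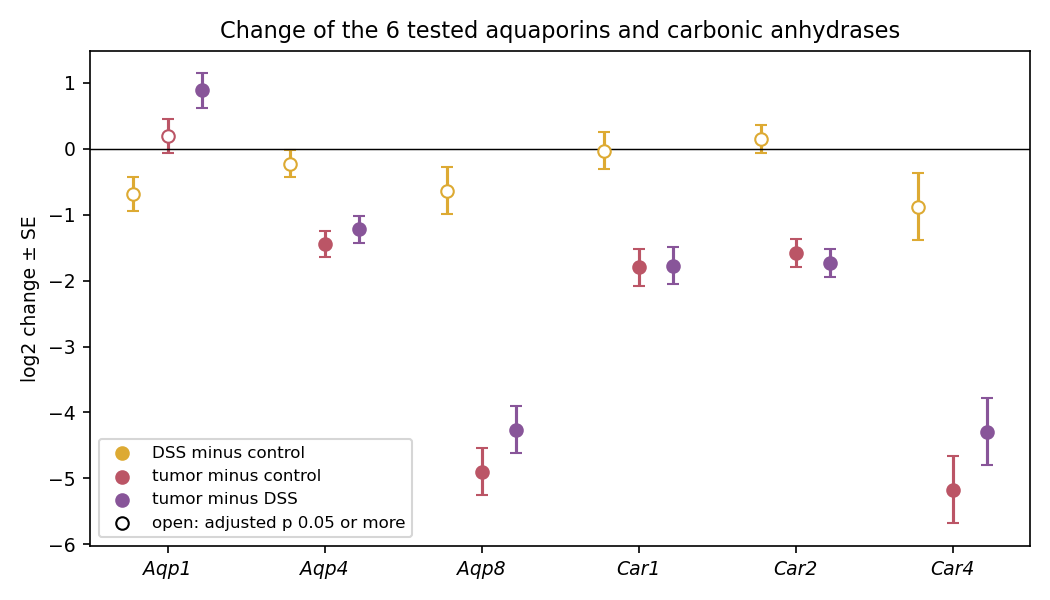
Log2 change of the intensity plus 17.7 for the 6 tested genes in DSS minus control, tumor minus control and tumor minus DSS, with SE from limma as error bars (n = 2 arrays per group); filled points have an adjusted p under 0.05. The tumor changes of Aqp8 and Car4 lie near -5, those of Aqp4, Car1 and Car2 between -1.80 and -1.45, and no DSS minus control change is filled.

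The third comparison set tumor against DSS crypts, and shares its tumor arrays with the second and its DSS arrays with the first. All 6 tested genes passed, 5 lower and Aqp1 higher, where 26.2% of all tested genes passed and 11.3% were lower. The log2 changes were -4.29 ± 0.51 for Car4, -4.26 ± 0.36 for Aqp8, -1.77 ± 0.28 for Car1, -1.73 ± 0.21 for Car2 and -1.22 ± 0.20 for Aqp4 (adjusted p = 0.00363 or less for each, limma). Aqp1 rose from 234 ± 10.1 in DSS to 461 ± 166 in tumor crypts, a log2 change of 0.89 ± 0.26 (adjusted p = 0.0382). That call of Aqp1 ended with quantile normalization (0.76), with median centring (0.65), without a filter (adjusted p = 0.0739), and on leaving out DSS replicate 1 (0.84), DSS replicate 2 (0.93) or tumor replicate 2 (0.53). Over all genes, 1107 were higher and 843 lower, and 697 and 1257 with median centring.

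Other genes of both families were mostly dim. All 5 other aquaporins with a probe set of their own, of 8 listed, lay below their array's median everywhere, at 0.885 to 27.2. Of 12 other carbonic anhydrases, 4 were tested, and 1 fell in tumor crypts. This was Car13, a cytosolic enzyme whose gene is the next protein-coding gene beside Car1 in that annotation, with 372 ± 26.9 in control and 206 ± 50.7 in tumor crypts and a log2 change of -0.81 ± 0.21 (adjusted p = 0.0287). Between tumor and DSS crypts Car13 did not pass (-0.50, adjusted p = 0.123), and neither did the other tested carbonic anhydrases outside the members. Car8, a family member without carbonic anhydrase activity, had a change of -0.43. The membrane-bound, hypoxia-induced Car9 was at 615 ± 149 and 676 ± 46.1, a change of 0.15, and the membrane-bound Car12 had a difference of 0.15 too. None of these 4 passed in DSS crypts. The median over the 4 was -0.14 between tumor and control, beside 0.05 over all genes.

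Genes listed for colonic ion and acid-base transport were lower in tumor crypts in many cases. Of these 29 genes, 23 had a probe set of their own and 20 were tested. Between tumor and control, 14 of the 20 fell and none rose, where 9.74% of all tested genes were called lower. The median change was -1.01, beside 0.05 over all genes. The chloride-bicarbonate exchanger Slc26a3, which exports the bicarbonate that carbonic anhydrases form, fell from 6344 ± 2677 to 356 ± 122, a log2 change of -4.06 ± 0.35. The goblet cell protein Clca1 changed by -3.54 ± 0.23, the sulfate transporter Slc26a2 by -2.48 ± 0.17 and the sodium-coupled butyrate transporter Slc5a8 by -2.07 ± 0.14 (adjusted p = 0.000243 or less for each of these 4). Between DSS and control none of the 20 passed, with a median of -0.03 and single changes from -1.50 (Scnn1g) to 0.59 (Best2). Between tumor and DSS, 12 of the 20 fell and 2 rose, Kcnq1 and Sgk1. Over all genes 26.2% passed in that comparison and 11.3% were lower. Of the 20, Slc26a3, Slc12a2 and Clca1 also stand in a cell type list given next.

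**Figure D3:**
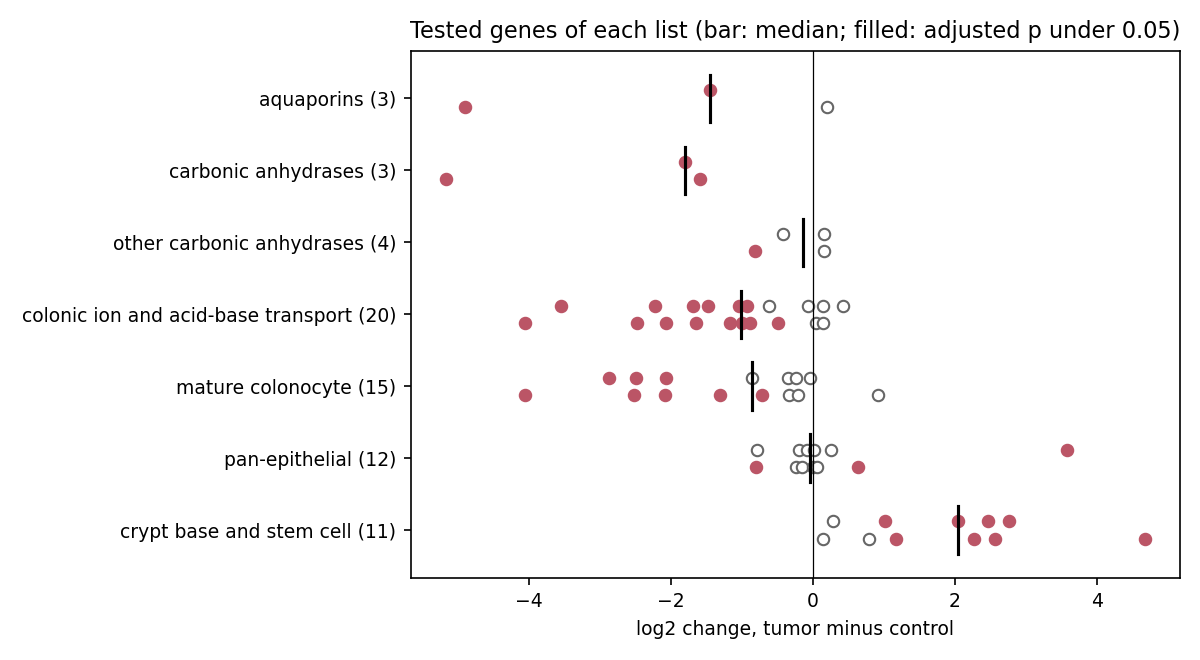
Log2 change between tumor and control crypts (horizontal axis) of the tested genes of 7 lists, with the number of genes in brackets, the median as a bar and filled points for an adjusted p under 0.05. The carbonic anhydrases and aquaporins described here, the transport genes (median -1.01) and the mature colonocyte genes (-0.86) lie mostly left of 0, and the crypt base genes (2.04) right of it.

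Markers of cell types differed between the groups too, and in bulk RNA fewer cells of a type and less RNA per cell cannot be told apart. Counts and medians here compare tumor with control crypts unless another comparison is named. Of all 7456 tested genes, 726 were called lower and 954 higher between tumor and control. Between tumor and DSS, 843 were called lower and 1107 higher. Mature colonocyte genes fell in 8 of 15 cases and none rose, with a median of -0.86. Between tumor and DSS crypts 8 of them fell and 1 rose, Emp1 (log2 change 2.35 ± 0.36). The summed intensity of mature colonocyte genes was 82643 and 86889.8 on the control, 82686 and 85692 on the DSS and 48673 and 47467 on the tumor arrays. Of these 15, Slc26a3, Vil1, Tff3 and Cyp2c55 also stand in other lists, and Tff3 is counted among the goblet cell genes that fell too. Goblet cell genes fell in 6 of 9 cases (median -0.74) and enteroendocrine genes in 7 of 8 (median -1.44). Crypt base genes rose in 8 of 11 cases, and their summed intensity was 15289 and 17601 on the tumor arrays against 8819 and 9552 on the control arrays. Pan-epithelial genes had a median of -0.04, with 2 of 12 higher and 1 lower. The part of cell composition in the members' changes was not tested.

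Other sources of these transcripts were looked at in the same way. Red blood cells hold Car1 and Car2. Of 11 red blood cell markers listed, 5 had a probe set of their own, and the rest could not be read. All 5 were below the array median on each array, with sums of 16.9 to 59.4. Endothelial markers, for Aqp1, had sums of 303 and 707 in control, 325 and 797 in DSS, and 649 and 2071 in tumor crypts, with 5 of 11 below the median on each array. The 2 of them that were tested, Esam and Plvap, differed from control by 1.25 and 1.41 in tumor crypts, neither past the test. Both the endothelial sum and Aqp1 were highest on tumor replicate 2, and the part of endothelium in the values of Aqp1 was not tested. Leukocyte markers summed to 415 to 1422 on control and DSS arrays and to 4183 and 18405 on the tumor arrays, and fibroblast markers to 2341 to 5213 and to 868 and 6507. Tumor replicate 2 was thus the array with the most leukocyte, fibroblast and endothelial signal. Smooth muscle markers summed to 1409 to 4125 on control and DSS arrays and to 874 and 1788 on the tumor arrays. Adipocyte, skeletal muscle and glial lists, for Car3 and Aqp4, had 4 of 6, 6 of 8 and 7 of 7 markers below the median on each array. Skeletal muscle markers summed to 2788 to 3927 on control and DSS arrays and to 722 and 617 on the tumor arrays. On control and DSS arrays most of this sum came from the 2 tested markers, the only ones not below the median throughout. Of these 2, 1 fell, the enolase Eno3. Adipocyte markers summed to 656 to 1689 on control and DSS arrays and to 295 and 579 on the tumor arrays. Only the 2 tested adipocyte markers were not below the median throughout, and 1 of them, the gluconeogenic enzyme Pck1, fell. Glial markers summed to 101 to 233 over the 6 arrays. The part of these cells in the members' changes was not tested.

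Regional markers bear on where along the colon crypts came from. Of the distal list, Hoxb13 measured 5156 ± 391 in control and 3262 ± 116 in tumor crypts (log2 change -0.66 ± 0.17, adjusted p = 0.0259), and Hoxd10 did not pass. Of the proximal list, Insl5 and Cyp2c55 changed by -3.78 ± 0.33 and -2.52 ± 0.27 in tumor crypts, and Hoxa3 did not pass. Summed, the proximal list gave 4965 and 8882 in control, 7694 and 9207 in DSS, and 923 and 626 in tumor crypts. Most of this sum came from Insl5, which is also an enteroendocrine marker here (mean 5165 in control crypts), and Cyp2c55, also a mature colonocyte marker (1574). The study design places control and DSS crypts in the distal colon and names no region for the adenomas, and a part of region in the members' changes was not tested.

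Likeness was measured as the Euclidean distance between log2 values over the 6 arrays, centred on the control mean. Of all tested genes, the one nearest to Aqp8 was Car4, at a distance of 0.90. Large changes weigh most in this distance, and both genes had the lowest log2 changes of all tested genes between tumor and control. Their tumor values stood near the array median, where signal cannot be separated from background. Outside both families, Mptx1, a pentraxin of the gut, was nearest to Aqp8 at 1.59 and to Car4 at 1.90, and had means of 15257 in control, 13729 in DSS and 598 in tumor crypts. Slc26a3 (1.69) and Rps4l (1.83) followed for Aqp8, and Rps4l (2.06) and Slc37a2 (2.52) for Car4. Each of these 4 genes had a DSS minus control change between -0.21 and 0.15, against -0.64 for Aqp8 and -0.88 for Car4.

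The middle group had nearer neighbours, and ranked 107 (Car1), 157 (Car2) and 190 (Aqp4) from the lowest change between tumor and control. Genes nearest to Car1 were the peptidase Dpp4 (0.24), Rep15 (0.27) and Tinag (0.29), and those nearest to Car2 were Unc119 (0.21), Sycn (0.21) and Golph3l (0.28). Genes nearest to Aqp4 were Chchd7 (0.23), the mucosal chemokine Ccl28 (0.26) and Cyp2d26 (0.31), and their tumor minus control changes lay between -1.56 and -1.44. Between Car1 and Car2 themselves the distance was 0.51, and 18 genes were nearer to Car1 than Car2 was. The genes nearest to Aqp1 were Mdn1 (0.42), Mier2 (0.42) and Fzr1 (0.48), each lower in mean intensity in DSS crypts than in the other groups.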

How the data were processed

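Each probe set has a linear intensity in the table the authors deposited, made with MAS5 per the submitters' processing notes, whose version is not given in the sources used here. As computed from the values, the mean of each array without its highest and lowest 2% was near 500.2. Members, gene lists, tests and most alternatives were chosen with earlier results of these data known. After 64 control probe sets were set aside, 20380 of 22626 mapped to 1 symbol, 691 to several and 1555 to none, through the platform's annotation updated by gene identifier. A pseudocount of 17.7, the 25th percentile, was added before log2. The filter asked for a value over the array's median on 2 or more arrays (12146 probe sets), and each gene (7456) was read from its brightest one. One limma model (version 3.58.1, R 4.3.3, trended prior variance, 2-sided tests) covered the 3 groups and left 3 residual degrees of freedom. Pools within a group are biological replicates per the labels, and their number limits the precision. Named genes were the members, in each related list up to 4 of smallest p between tumor and control, and the 3 genes nearest to each tested member. Cell type markers named beside them show which lists moved. The pipeline was tested on simulated data. Protein sequences were not used here. Alternatives covered normalization, pseudocount, filter, probe set handling, the trend, 2-group fits, a replicate block and leaving out arrays singly. Plots used matplotlib 3.10.9 under Python 3.11.15.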

Additional observations from a re-analysis of the deposited data

How the results depend on the processing

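Over 18 other settings, all 180 log2 changes of Aqp4, Aqp8, Car1, Car2 and Car4 in both tumor comparisons kept their direction and their call, with adjusted p up to 0.0298 (limma). Between tumor and control the change ranged from -6.07 to -4.28 for Car4, -5.29 to -4.15 for Aqp8, -2.27 to -1.33 for Car1, -1.90 to -1.27 for Car2 and -1.70 to -1.22 for Aqp4. Aqp1 turned to -0.050 between tumor and control when each array was centred on its median and ranged from -0.16 to 0.56 with an array left out, and Car1 between DSS and control ranged from -0.19 to 0.14. Aqp1 did not pass the 75th percentile filter and has no value under it. That filter called 1099 genes between tumor and control and 1260 between tumor and DSS, from fewer genes tested. With an array left out, genes called ranged from 702 to 1383 between tumor and control, 903 to 1923 between tumor and DSS, and 0 to 2 between DSS and control.

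Replicate numbers are shared by the groups, but the labels do not say that they pair the pools. Deviations of arrays numbered 1 from their group mean correlated across genes at 0.45 for control and DSS, 0.08 for control and tumor and 0.44 for DSS and tumor. With the replicate block in the fit of 3 groups, 0, 5 and 6 of the members were called in DSS minus control, tumor minus control and tumor minus DSS. Over all 7456 tested genes, that fit called 0, 1944 and 2208 in the same order. A fit of DSS and control alone with the replicate block was chosen after seeing the data and left with 1 residual degree of freedom. It called 114 of 7064 tested genes. Among these were 3 of the 6 tested members (Aqp1 at -0.69, Aqp8 at -0.64 and Car4 at -0.88) and 3 related genes.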

Other observations

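Among carbonic anhydrases below the filter, 2 were chosen after their values were seen. Car5b, a mitochondrial enzyme, measured 3.17 and 12.2 in control, 6.65 and 19.3 in DSS and 33.4 and 46.8 in tumor crypts, so both tumor arrays were highest. Car14, a membrane-bound enzyme, measured 28.5 and 36.2 in control, 11.2 and 5.24 in DSS and 3.94 and 5.14 in tumor crypts, so both control arrays were highest. All values of both genes lay below their array's median and were not tested.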
